A study of Mus musculus with 35 samples.

Results

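The Hox, Dlx, Lhx, Nkx, Pax, Irx and Tbx genes and the sine oculis relatives such as Six3 encode transcription factors that lay out the body and the brain in the embryo. They were examined here in the adult striatum of mice that carry the Huntington's disease mutation. Of the 22099 genes in the table, 65 had names of these families, and the 25 of them with at least 10 counts in 5 or more mice make up the set described. The names define the families and the counts define the 25. The other 40 rows fell under the count minimum and are described separately. RNA was sequenced from the hemistriata of 35 female C57BL6/J mice aged 299 to 304 days. In all, 18 of them, B6.Htt Q111/+ mice, carried 1 mutant allele with an expanded CAG repeat at the endogenous Htt locus, and 17 were wild-type littermates (Htt+/+). Weekly, starting at 2 months of age and ending at 10 months, the mice were injected intraperitoneally with an antisense oligonucleotide (ASO) against Htt at 50 mg per kg, with a control ASO at 50 mg per kg, or with saline at 4 µL per g. Each of these 6 groups held 6 mice, except Htt+/+ mice on control ASO, which numbered 5. The Htt ASO is directed at both alleles and was given outside the brain, so it acts as a model of silencing in peripheral tissue. All samples were the right hemistriatum except that of 1 Htt+/+ mouse on Htt ASO, which was the left.

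Homeobox proteins bind DNA through a shared fold, the homeodomain, and T-box proteins (Tbx) bind it through a fold of another kind. Hox genes give cells their position along the head-to-tail axis and are kept silent in the forebrain by Polycomb complexes, which mark and compact their chromatin. The Dlx genes, by contrast, drive the birth of GABAergic neurons in the ventral forebrain, and some of them stay active in adult striatal neurons. The question asked was whether developmental regulators that are normally silent rise in Htt Q111/+ mice.

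Libraries held 32200158 to 38641924 expected counts (median 35538941). The labelled tissue was checked against 11 genes of striatal projection neurons, whose summed level was 7617 to 8918 CPM (counts scaled to library size, with TMM factors) in Htt+/+ mice and 5119 to 6129 CPM in Htt Q111/+ mice, with 9 of the 11 lower and 1 higher. Sequencing lane is read from the sample titles, and lane 7 held 6 Htt Q111/+ mice and no Htt+/+ mouse. In a Htt+/+ mouse on control ASO the summed level of 6 choroid plexus and ependymal genes was 1587 CPM, against at most 157.9 CPM in any Htt Q111/+ mouse.

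Levels of the 25 genes were low to moderate in this tissue. Of these genes, 18 had at least 10 counts in every mouse, and Tbx4, Six4, Tbx15, Irx1, Irx3 and Dlx4 in 9 to 33 of the 35 mice. Per kilobase of exon, the highest mean levels were those of Dlx6 (7.90 CPM per kb), Nkx6-2 (5.58), Dlx5 (5.46), Lhx6 (4.95), Lhx2 (4.52), Six3 (3.60), Lhx8 (3.03) and Dlx1 (2.17). These are for the most part genes of the ventral forebrain. Lhx6 marks interneurons born in the medial ganglionic eminence, Lhx8 is needed for cholinergic neurons, Six3 acts in the making of striatal projection neurons, and Nkx6-2 is expressed by oligodendrocytes. At the other end stood Six4 (0.040 CPM per kb), Dlx4 (0.066), Tbx15 (0.088), Irx3 (0.090) and Irx1 (0.099). No member belonged to the Hox clusters: all 14 Hox rows, 3 of Hoxa, 5 of Hoxb, 3 of Hoxc and 3 of Hoxd, lay below the count minimum. The 25 were divided as 7 Tbx, 5 Dlx, 4 Nkx, 3 Lhx, 2 Irx and 1 Pax gene and the 3 sine oculis relatives Six3, Six4 and Six5.

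Between the genotypes, averaged over treatments, 2 of the 25 genes differed: Dlx5 was higher and Dlx6 lower in Htt Q111/+ mice (limma after voom, Benjamini-Hochberg adjusted over 17639 tested genes, threshold 0.05). That is 8% of the set, beside 39.8% of all tested genes, of which 21.8% were higher and 18.0% lower in Htt Q111/+ mice. Among the 10168 tested genes whose mean CPM lay within the range of the 25, 31.3% were called. The 25 did not shift together: 11 had a positive and 14 a negative log2 difference, with a median of -0.02 beside 0.0037 over all tested genes. Their median absolute log2 difference was 0.10, beside 0.089 over all tested genes. Their standard errors were larger, with a median of 0.088 beside 0.040 over all tested genes and 0.066 over the 10168 genes in their CPM range. A difference of a given size was thus harder to call in these genes. An unadjusted p under 0.05 was reached by 5 of the 25.

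**Figure D1:**
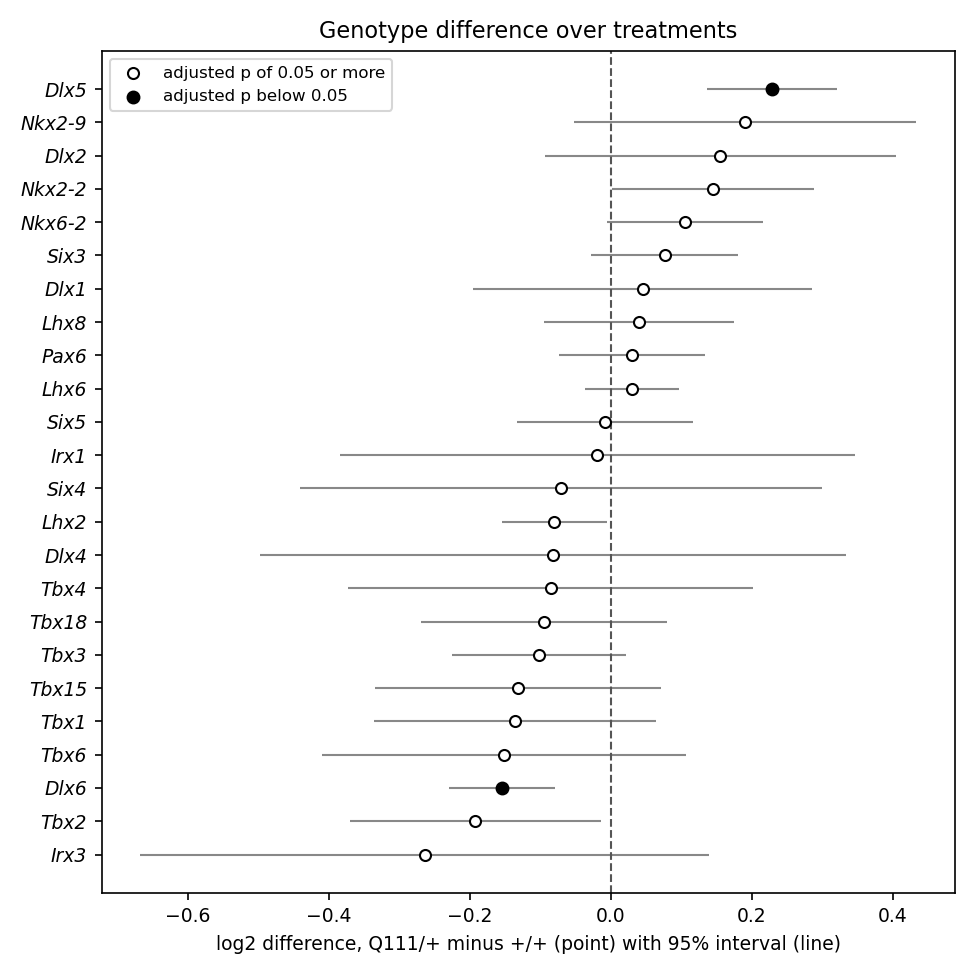
Log2 difference between Htt Q111/+ (n = 18) and Htt+/+ (n = 17) mice for 24 of the 25 genes, from limma after voom; points are estimates and lines their 95% intervals, and filled points have an adjusted p below 0.05. Only Dlx5 (0.23) and Dlx6 (-0.15) are filled; the 7 Tbx genes lie left of 0 and the 3 Nkx genes shown right of it, with no call among them.

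Dlx5 and Dlx6 encode homeodomain factors that act after Dlx1 and Dlx2 in the maturation of ventral forebrain GABAergic neurons. In the mouse genome (GRCm38) they are neighbours on opposite strands of chromosome 6. Dlx5 ranged from 8.54 to 13.3 CPM in Htt+/+ mice (median 11.6) and from 11.6 to 15.04 CPM in Htt Q111/+ mice (median 13.1). The genotypes overlapped. The log2 difference was 0.23 (SE 0.045, adjusted p = 1.12e-04, limma). Dlx6 ranged from 16.6 to 23.0 CPM in Htt+/+ mice (median 19.8) and from 15.9 to 20.2 CPM in Htt Q111/+ mice (median 17.6), again with overlap. Its log2 difference was -0.15 (SE 0.037, adjusted p = 9.81e-04, limma). In bulk tissue, fewer cells of a type and less RNA per cell cannot be told apart.

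The neighbours thus moved in opposite directions. The log2 ratio of Dlx5 to Dlx6 CPM ranged from -0.99 to -0.53 in Htt+/+ mice (median -0.83) and from -0.65 to -0.23 in Htt Q111/+ mice (median -0.41). In all, 13 of the 18 Htt Q111/+ mice lay above the highest Htt+/+ mouse, and 14 of the 17 Htt+/+ mice lay below the lowest Htt Q111/+ mouse. This ratio was formed after the values had been seen and is given without a test. It joins the only 2 of the 25 genes that were called, in opposite directions. Separation by genotype therefore follows in part from that choice. In the 5 lanes that held both genotypes, the log2 difference of Dlx5 was positive in 5 (0.075 to 0.33) and that of Dlx6 negative in 5 (-0.30 to -0.038). A noncoding transcript, Dlx6os1, runs antisense over Dlx6. The libraries were made with a stranded kit, but whether the counting used strand is not given in the sources used here.

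**Figure D2:**
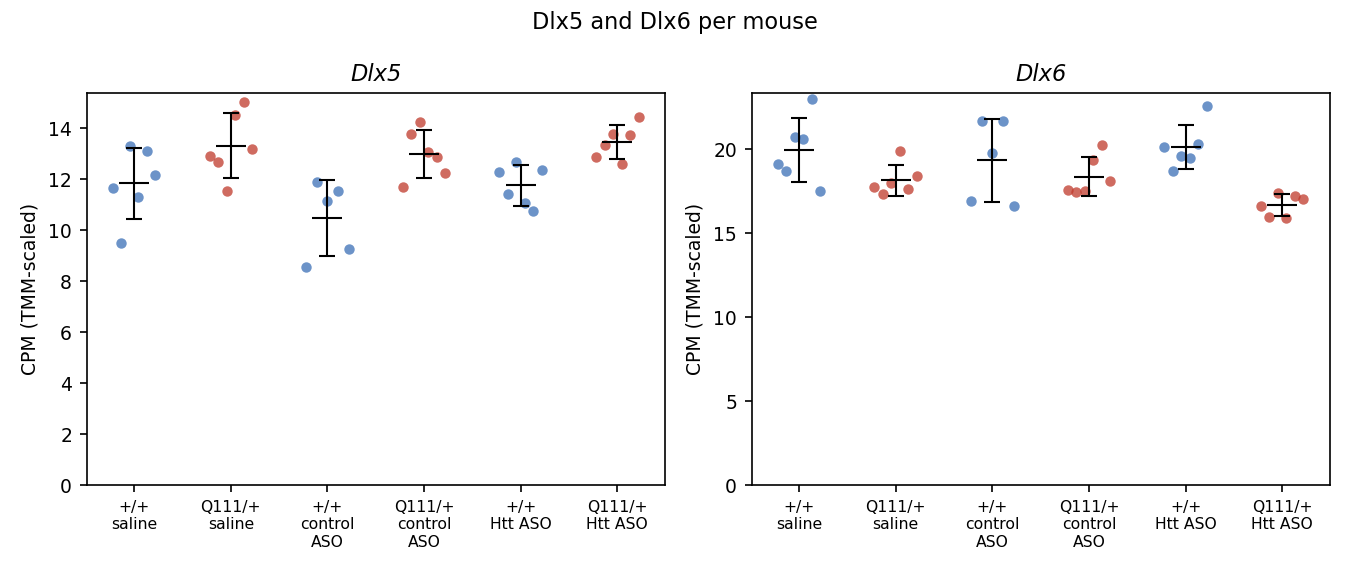
CPM of Dlx5 and Dlx6 in each mouse (points), by genotype (blue, Htt+/+; red, Htt Q111/+) and treatment, with group mean and SD (black; n = 6, or 5 for Htt+/+ on control ASO). Dlx5 reached 15.04 CPM in Htt Q111/+ mice and 13.3 in Htt+/+ mice, whereas Dlx6 reached 20.2 and 23.0 CPM.

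The other Dlx genes gave no call. Dlx1 and Dlx2, the earlier-acting pair in ventral forebrain progenitors, differed by 0.046 (SE 0.12) and 0.16 (SE 0.12) on the log2 scale. Dlx1 alone ranged from 5.51 to 16.0 CPM in Htt+/+ mice and from 7.53 to 16.3 CPM in Htt Q111/+ mice, so its spread between mice was wide in both genotypes. Dlx4, a gene best known from placenta and craniofacial tissue, differed by -0.082 (SE 0.20).

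Among the uncalled genes the 3 of highest mean CPM were Lhx6, Lhx2 and Six3. Lhx6 ranged from 20.6 to 25.7 CPM in Htt+/+ mice (median 24.0) and from 20.2 to 26.4 CPM in Htt Q111/+ mice (median 24.3). Its log2 difference of 0.030 had a 95% interval of -0.036 to 0.096 (SE 0.032, adjusted p = 0.494, limma). Lhx2, a LIM-homeodomain gene of forebrain patterning, ranged from 17.6 to 23.3 CPM in Htt+/+ mice (median 20.3) and from 16.6 to 22 CPM in Htt Q111/+ mice (median 19.4). Its log2 difference was -0.080 (95% interval -0.15 to -0.0057, SE 0.036, adjusted p = 0.0801, limma). In the 5 lanes with both genotypes it was negative in 3 and positive in 2 (-0.34 to 0.067). Six3 ranged from 15.4 to 25.3 CPM in Htt+/+ mice (median 18.7) and from 16.5 to 24.0 CPM in Htt Q111/+ mice (median 20.1). Its log2 difference was 0.077 (95% interval -0.027 to 0.18, SE 0.051, adjusted p = 0.244, limma), and it was positive in all 5 lanes with both genotypes (0.066 to 0.22). For all 3 genes the genotypes overlapped through most of their range. Lhx8 differed by 0.040 (SE 0.066).

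Marker lists of cells that express these genes were read in the same fit. Of 9 GABAergic interneuron markers, 3 were lower and none higher in Htt Q111/+ mice, beside 18.0% of all tested genes lower and 21.8% higher, with a summed level of 221.3 to 245.8 CPM in Htt+/+ mice and 206.2 to 231.6 CPM in Htt Q111/+ mice. Of 3 cholinergic interneuron markers none was called, and their sum was 70.5 to 98.9 CPM and 71.8 to 95.7 CPM. The projection neuron list fell in 9 of 11 genes, as given above. The part of these shifts in the values of Dlx5, Dlx6, Lhx2 and Six3 was not tested.

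Nkx2-2, Nkx6-2 and Nkx2-9 had positive log2 differences, none of them called. Nkx2-2 and Nkx6-2 act in oligodendrocyte differentiation and myelination. Nkx2-2 ranged from 2.54 to 4.495 CPM in Htt+/+ mice (median 2.90) and from 2.57 to 4.23 CPM in Htt Q111/+ mice (median 3.39), a log2 difference of 0.14 (SE 0.071, adjusted p = 0.102, limma). Nkx6-2 ranged from 7.60 to 12.5 CPM and from 9.03 to 13.8 CPM, a log2 difference of 0.11 (SE 0.054, adjusted p = 0.125, limma). Both were called when libraries were scaled by their totals without TMM, with log2 differences of 0.18 (adjusted p = 0.0344) and 0.14 (adjusted p = 0.0291), a scaling that moved the median log2 difference of all tested genes to 0.043. Nkx2-9, known from the embryonic floor plate, differed by 0.19 (SE 0.12). Of 8 oligodendrocyte markers 2 were lower and none higher in Htt Q111/+ mice, beside the 18.0% of all tested genes that were lower, with summed levels of 9387 to 12476 CPM in Htt+/+ and 9003 to 10969 CPM in Htt Q111/+ mice. Their part in the Nkx values was not tested.

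The 7 Tbx genes all had negative log2 differences, and none was called. The differences were -0.19 for Tbx2 (SE 0.088, adjusted p = 0.08, limma), -0.15 for Tbx6, -0.14 for Tbx1, -0.13 for Tbx15, -0.10 for Tbx3, -0.095 for Tbx18 and -0.085 for Tbx4. The signs held under each of the alternatives tried, yet in the 5 lanes with both genotypes only 3 or 4 of the 5 values were negative for each gene. Tbx2 and Tbx3 are repressors in limb, heart and mammary development, Tbx6 acts in the presomitic mesoderm, and Tbx18 is expressed by pericytes and other mural cells. Of 8 endothelial and mural markers, 5 were lower and none higher in Htt Q111/+ mice, beside 18.0% of all tested genes lower and 21.8% higher. Their summed levels were 229.9 to 332.5 CPM in Htt+/+ and 200.7 to 245.3 CPM in Htt Q111/+ mice. Of 8 meningeal fibroblast markers, 2 were lower, beside the same 18.0% of all tested genes, with sums of 43.3 to 102.6 CPM and 38.4 to 50.4 CPM. The highest of these sums was that of the Htt+/+ mouse with the high choroid plexus level; without it the Htt+/+ mice reached 55.3 CPM, and 2 meningeal markers were again lower. The part of these cells in the Tbx values was not tested.

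The remaining genes were Pax6, Six4, Six5, Irx1 and Irx3, and none was called. Pax6, best known from eye and cortex, differed by 0.030 (95% interval -0.073 to 0.13). Six5, a gene next to the myotonic dystrophy repeat, differed by -0.0083 (SE 0.061), and Six4, its muscle-related relative, by -0.070 (SE 0.18). The Iroquois genes Irx1 and Irx3, which pattern the neural plate, were at 0.053 to 0.49 CPM and differed by -0.019 (SE 0.18) and -0.26 (SE 0.20). Among the 18 genes with 10 counts in every mouse, the highest upper bound of a 95% interval was 0.43 on the log2 scale, that of Nkx2-9.

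Within each treatment, the genotype difference was called for few of the 25 genes. On saline it was called for Lhx2 alone (17.4% of all tested genes were called), on control ASO for Dlx5 alone (18.5%), and on Htt ASO for Dlx6 and Nkx6-2 (21.2%). On saline, Lhx2 ranged from 19.1 to 23.3 CPM in 6 Htt+/+ mice (median 21.7) and from 16.99 to 20.3 CPM in 6 Htt Q111/+ mice (median 19.2). The log2 difference was -0.18 (SE 0.062, adjusted p = 0.0385, limma), with the groups overlapping. Of these 6 Htt Q111/+ mice, 3 were in lane 7, which held no Htt+/+ mouse. On control ASO, Dlx5 was at 8.54, 9.27, 11.2, 11.6 and 11.9 CPM in the 5 Htt+/+ mice and at 11.7 to 14.2 CPM in the Htt Q111/+ mice (median 13.0). The log2 difference was 0.32 (SE 0.083, adjusted p = 0.00643, limma), and only the highest Htt+/+ mouse reached into the range of the Htt Q111/+ mice. On Htt ASO, Dlx6 ranged from 18.7 to 22.6 CPM in Htt+/+ mice (median 19.9) and from 15.9 to 17.4 CPM in Htt Q111/+ mice (median 16.8), without overlap. The log2 difference was -0.27 (SE 0.063, adjusted p = 0.002, limma). Nkx6-2 ranged from 7.60 to 12.5 CPM and from 10.4 to 13.8 CPM there, a log2 difference of 0.25 (SE 0.091, adjusted p = 0.0469, limma), and was not called when only these mice entered the fit (0.24, adjusted p = 0.164).

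These calls are not shown to differ between treatments. The interaction of genotype and treatment was called for 0 genes of all tested (0%), by limma and by edgeR, although 945 genes (limma) and 981 genes (edgeR) had an unadjusted p under 0.05. None of the 25 was among the 945. The log2 difference of Dlx5 was 0.17, 0.32 and 0.20 on saline, control ASO and Htt ASO, and that of Dlx6 was -0.13, -0.066 and -0.27. The interaction p, unadjusted, was 0.390 for Dlx5 and 0.0887 for Dlx6 (limma).

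The 40 rows under the count minimum include every Hox gene in the table, and so speak most directly to silent regulators. Hox genes that have no row in the table are not covered. Their totals over 35 mice ran from 3 to 199 counts. Summed over all 40 rows, a mouse had 29.7 to 60.3 counts in the Htt+/+ group (median 48.1) and 37.4 to 82.4 counts in the Htt Q111/+ group (median 49.7). The 14 Hox rows summed to 2 to 20 counts in Htt+/+ mice (median 9) and 6 to 30 counts in Htt Q111/+ mice (median 17). The genotypes overlapped in both sums. Within the Hox sum, Hoxa7, Hoxc4, Hoxc5 and Hoxc6, named for their calls below, held most of the difference. All 14 Hox rows held 172 counts in Htt+/+ and 292 in Htt Q111/+ mice, and the 10 Hox rows without these held 154 and 177. The rows left out were picked by their calls in these same counts. A smaller difference without them follows from that choice.

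A fit with no filter on low counts (22098 rows with at least 1 count) called 6 of these 40 rows by genotype, 5 higher and 1 lower in Htt Q111/+ mice. No test of these rows had been planned, and it was added after the counts had been seen. Of all 4421 rows under the same minimum, 1.72% were called higher and 1.88% lower in Htt Q111/+ mice. Among the 4289 of those rows with a total within the range of the 40, 1.70% were called higher. The 5 higher rows were Hoxa7, Hoxc4, Hoxc5, Hoxc6 and Nkx2-3, and the lower row was Six2. Hoxa7 and the 3 Hoxc genes pattern the trunk and are not part of normal forebrain development. Nkx2-3 acts in gut and spleen development, and Six2 maintains kidney progenitors.

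Hoxa7 had 0 to 2 counts per mouse in Htt+/+ mice (median 0) and 1 to 6 in Htt Q111/+ mice (median 2). It was seen in 8 of 17 Htt+/+ mice and in 18 of 18 Htt Q111/+ mice. In total that was 11 and 51 counts, a ratio per library of 4.26 (95% exact interval 2.19 to 9.06, which covers counting error only). The log2 difference was 1.63 (SE 0.31, adjusted p = 9.0e-05, limma). On saline, control ASO and Htt ASO, Hoxa7 totalled 4, 3 and 4 counts in Htt+/+ mice and 16, 15 and 20 counts in Htt Q111/+ mice, so it was higher on all 3 treatments. Its mean count was also higher in Htt Q111/+ mice in 5 of the 5 lanes with both genotypes.

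Hoxc4 had 1 count in 1 of the 17 Htt+/+ mice and 31 counts over 13 of the 18 Htt Q111/+ mice, with at most 8 in any mouse. The ratio was 28.5 (95% exact interval 4.75 to 1161), and the fit gave an adjusted p of 0.00138 (limma). Hoxc6 totalled 2 and 17 counts, a ratio of 7.81 (1.85 to 69.7, adjusted p = 0.0104), and Hoxc5 totalled 4 and 16 counts, a ratio of 3.68 (1.19 to 15.1, adjusted p = 0.0382). These 3 genes are neighbours on chromosome 15 with overlapping transcripts, so their reads may be shared between rows and they are not independent observations. Nkx2-3 totalled 3 and 19 counts, a ratio of 5.82 (1.71 to 30.7, adjusted p = 0.0132), and was seen in 3 of 17 Htt+/+ and 10 of 18 Htt Q111/+ mice. On saline, control ASO and Htt ASO it totalled 1, 0 and 2 counts in Htt+/+ mice and 3, 5 and 11 counts in Htt Q111/+ mice, where it was seen in 1, 3 and 6 of 6 mice. Six2 totalled 27.8 and 12.3 expected counts. Rounded to 28 and 12, these gave a ratio of 0.394 (0.182 to 0.7996), and the fit gave an adjusted p of 0.0414 (limma). At a handful of counts per mouse the fitted log2 values depend on the constants added before logs, so the counts and their ratios are the firmer description.

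The calls of Hoxa7, Hoxc4 and Nkx2-3 held under edgeR, with lane as a covariate, without lane 7, without the left hemistriatum and without TMM, with adjusted p of at most 0.00131, 0.00835 and 0.0207. Those of Hoxc6, Hoxc5 and Six2 were lost with lane as a covariate (adjusted p = 0.0625, 0.290 and 0.0678). Hoxc5 and Six2 also lost their calls without the left hemistriatum mouse (adjusted p = 0.0503 and 0.0619), and they were called in only 14 and 16 of the 35 fits that left out 1 mouse each. The other 34 rows were not called, among them 10 Hox rows: Hoxd1, the most abundant of them, totalled 79 counts in Htt+/+ and 109 in Htt Q111/+ mice (adjusted p = 0.546), and Hoxb4 totalled 25 and 19 (adjusted p = 0.636).

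**Figure D3:**
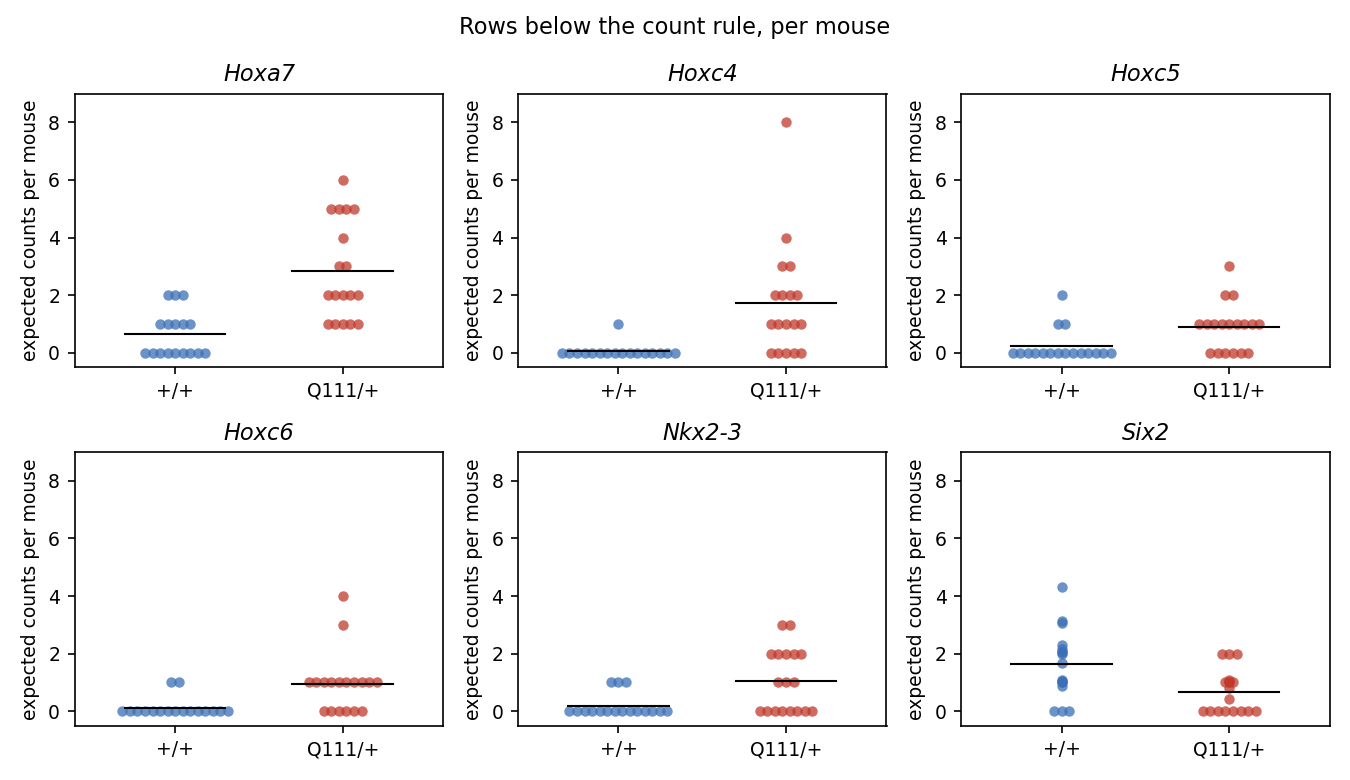
Expected counts per mouse for the 6 rows under the count minimum that were called by genotype in the unfiltered fit (points are mice, 17 Htt+/+ in blue and 18 Htt Q111/+ in red; lines are means). No mouse exceeds 8 counts, and Hoxa7 is above 0 in all 18 Htt Q111/+ mice.

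RefSeq promoter windows, 300 bases around the start of a transcript in GRCm38.p6, were read for Hoxa7 and Hoxc4, the clearest of the low rows, since CpG-rich starts are where Polycomb complexes gather. The files themselves were made on an older build, mm9. The Hoxa7 window is chr6:52218524-52218823 on the minus strand and the Hoxc4 window chr15:103034145-103034444 on the plus strand. CG dinucleotides are in capitals.
Hoxa7: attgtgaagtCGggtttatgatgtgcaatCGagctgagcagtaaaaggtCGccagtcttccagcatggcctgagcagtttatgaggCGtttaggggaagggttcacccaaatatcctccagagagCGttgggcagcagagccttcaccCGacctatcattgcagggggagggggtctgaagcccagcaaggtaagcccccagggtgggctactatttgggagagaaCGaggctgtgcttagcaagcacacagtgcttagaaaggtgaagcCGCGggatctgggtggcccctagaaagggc
Hoxc4: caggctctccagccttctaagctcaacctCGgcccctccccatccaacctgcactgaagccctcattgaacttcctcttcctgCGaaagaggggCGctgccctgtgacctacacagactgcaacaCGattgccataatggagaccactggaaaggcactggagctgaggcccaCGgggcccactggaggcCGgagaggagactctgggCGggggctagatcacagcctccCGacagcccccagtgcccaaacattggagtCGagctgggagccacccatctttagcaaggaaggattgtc
Each window holds 9 CG dinucleotides, more than 54.2% of all 32851 windows of this length, whose median is 7. Over the 28 windows found for 25 of the 40 low rows the median was 16 (1 to 40), and over the 23 windows found for 17 of the 25 more abundant genes it was also 16 (4 to 34). Both sets therefore had more CG dinucleotides than windows at large, and the 2 Hox windows shown were below the median of their set.

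Among the treatments, Tbx1 stood highest in mice given Htt ASO. Tbx1 encodes a T-box factor of the pharyngeal arches that is deleted in 22q11 deletion syndrome and is also expressed in brain endothelium. Over both genotypes it ranged from 0.78 to 1.70 CPM on saline (median 1.43, 12 mice), from 0.95 to 1.83 CPM on control ASO (median 1.32, 11 mice) and from 1.56 to 2.49 CPM on Htt ASO (median 2.18, 12 mice). Of the 12 mice on Htt ASO, 9 lay above the highest saline mouse and 8 above the highest control ASO mouse. The log2 difference was 0.66 against control ASO (SE 0.12, adjusted p = 9.55e-04, limma) and 0.65 against saline (SE 0.11, adjusted p = 4.8e-04, limma). Of all tested genes 0.828% and 1.20% were called higher in these comparisons, which share the Htt ASO mice. Within lanes the difference was positive in 6 of 6 against control ASO (0.30 to 1.32) and in 5 of 5 against saline (0.46 to 0.98).

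Split by genotype, the log2 difference of Tbx1 between Htt ASO and control ASO was 0.70 in Htt Q111/+ mice (adjusted p = 0.0454, limma) and 0.62 in Htt+/+ mice (adjusted p = 0.183, limma). In Htt Q111/+ mice Tbx1 was at 0.95 to 1.54 CPM on control ASO and 1.56 to 2.49 CPM on Htt ASO, without overlap. In Htt+/+ mice it was at 0.98, 1.098, 1.33, 1.59 and 1.83 CPM on control ASO and 1.63 to 2.42 CPM on Htt ASO, so the highest control mouse reached into the upper group. It was the only one of the 25 called in Htt Q111/+ mice (0.357% of all tested genes), and none was called in Htt+/+ mice (0.295%). The 2 sizes are close, and their difference was part of the interaction test, which called nothing.

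Tbx3 was also higher on Htt ASO than on saline. It ranged from 2.81 to 4.35 CPM on saline (median 3.26), from 2.70 to 4.06 CPM on control ASO (median 3.72) and from 3.35 to 5.39 CPM on Htt ASO (median 4.06). The log2 difference against saline was 0.30 (SE 0.073, adjusted p = 0.0187, limma), lost with lane as a covariate (0.25, adjusted p = 0.133). Against control ASO it was 0.22 (SE 0.074, adjusted p = 0.329, limma). The treatments overlapped. None of the 25 was called between control ASO and saline, nor was any gene of those tested (0%, by limma and by edgeR), with 1357 genes at an unadjusted p under 0.05 (limma).

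**Figure D4:**
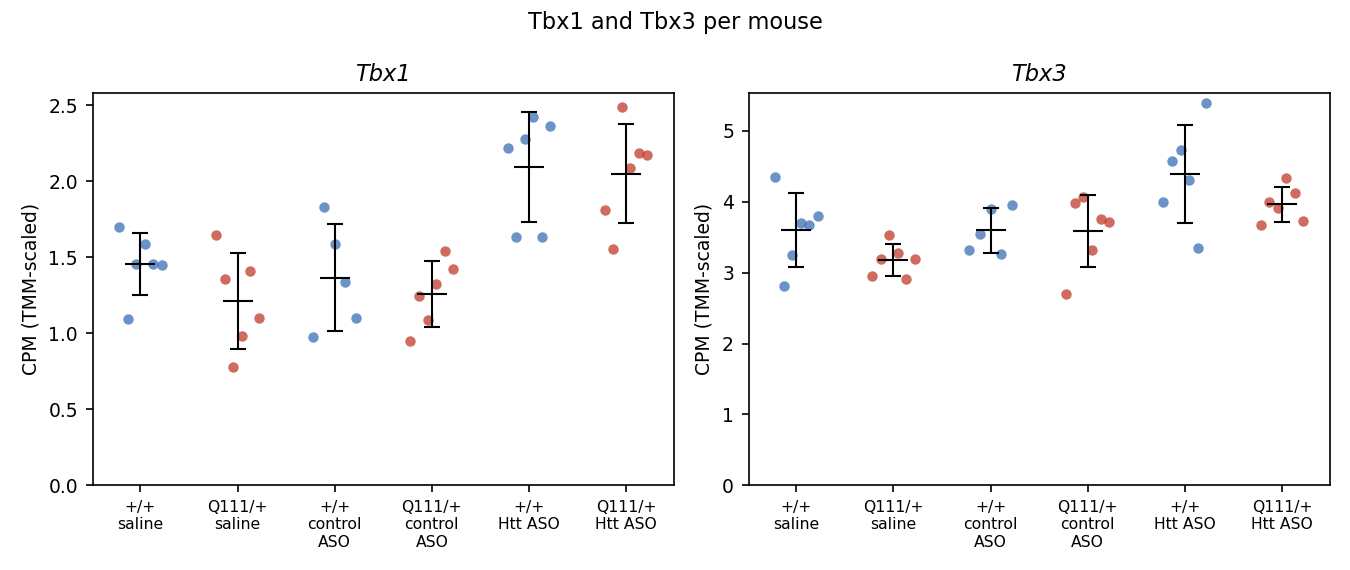
CPM of Tbx1 and Tbx3 in each mouse (points) by genotype (blue, Htt+/+; red, Htt Q111/+) and treatment, with group mean and SD (black; n = 6, or 5 for Htt+/+ on control ASO). Tbx1 reaches at most 1.83 CPM on saline or control ASO and 2.49 CPM on Htt ASO.

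Of the 8 endothelial and mural markers, Pecam1 (log2 difference 0.20, adjusted p = 0.0451) and Rgs5 (0.16, adjusted p = 0.0251) were higher on Htt ASO than on saline (limma). Of all tested genes 1.20% were called higher there. Acta2 (-0.23) and Flt1 (-0.047) had negative log2 differences against saline, neither of them called. None of the list was called against control ASO, with Cldn5 at 0.41 (adjusted p = 0.0638, limma), Acta2 at -0.15 and Flt1 at -0.065. The summed level of the list was 204.2 to 268.6 CPM on saline, 200.7 to 332.5 CPM on control ASO and 220.4 to 280.1 CPM on Htt ASO. Its part in the Tbx1 and Tbx3 values was not tested. Both RefSeq starts of Tbx1 are shown because the counts do not say which of them was used. The first is chr16:18588850-18589149 and the second chr16:18590622-18590921, both on the minus strand in GRCm38.p6, with CG dinucleotides in capitals.
Tbx1, first start: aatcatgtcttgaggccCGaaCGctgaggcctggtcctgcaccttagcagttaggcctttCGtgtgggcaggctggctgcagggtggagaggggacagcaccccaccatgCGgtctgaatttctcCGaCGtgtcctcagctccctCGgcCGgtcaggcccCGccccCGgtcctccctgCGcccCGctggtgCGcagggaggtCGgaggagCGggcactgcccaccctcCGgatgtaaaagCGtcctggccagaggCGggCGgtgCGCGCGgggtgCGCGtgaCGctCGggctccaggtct
Tbx1, second start: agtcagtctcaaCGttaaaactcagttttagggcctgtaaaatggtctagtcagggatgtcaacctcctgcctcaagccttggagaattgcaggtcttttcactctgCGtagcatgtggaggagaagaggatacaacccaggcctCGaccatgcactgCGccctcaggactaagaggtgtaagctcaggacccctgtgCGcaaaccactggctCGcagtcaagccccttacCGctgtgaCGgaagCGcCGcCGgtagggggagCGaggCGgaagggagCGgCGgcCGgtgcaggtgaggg
The windows hold 26 and 16 CG dinucleotides, more than 83.1% and 67.0% of all windows of this length.

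Genes that work with these factors or keep them silent were read from lists, each gene tested by genotype in the same fit. Of 8 TALE cofactors, which bind DNA together with Hox proteins, 2 were higher and 2 lower in Htt Q111/+ mice (median log2 difference -0.03). Meis1 rose by 0.17 and Meis2, a gene of striatal progenitors and projection neurons, fell by 0.18 on the log2 scale. Of 6 LIM domain cofactors, partners or competitors of Lhx proteins, 2 were higher and 1 lower, led by Lmo2 (-0.56, from a median of 58.3 to 39.4 CPM, without overlap). Of 6 Eya and Dach cofactors of sine oculis proteins, 2 were higher and 2 lower, with Eya1 at 0.30 and Dach1 at -0.18. Of 6 Groucho corepressors none was higher and 2 were lower, Tle6 (-0.45) and Tle2 (-0.19).

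Polycomb subunits changed in both directions. Of 12 PRC2 subunits, the complex that deposits methyl groups on histone H3 at lysine 27, 2 were higher and 3 lower (median -0.01). The largest difference was that of E130012A19Rik, the older name of Epop, at -0.70 (SE 0.065, adjusted p = 8.22e-11, limma). Neither catalytic subunit was called: Ezh1 had an adjusted p of 0.645 and Ezh2 of 0.473. Of 19 PRC1 subunits, the complex that reads the mark and ubiquitinates histone H2A, 6 were higher and 1 lower (median 0.02). Cbx8 ranged from 4.74 to 8.24 CPM in Htt+/+ mice and from 7.27 to 10.998 CPM in Htt Q111/+ mice, with a log2 difference of 0.64 (SE 0.059). Pcgf6 differed by 0.19 (SE 0.032). A list of 10 genes held demethylases of this mark, trithorax methyltransferases and subunits that work with the latter. Of these, 5 were higher and 2 lower (median 0.04). The demethylases Jmjd3 (0.24) and Utx (-0.11) and the methyltransferases Mll2 (0.18) and Mll1 (-0.22) were called, so both kinds of enzyme had members called in each direction. The other genes called higher, Wdr5, Ash2l and Men1, encode subunits and not enzymes of either kind. With 39.8% of all tested genes called, the counts of these lists were not set apart by any test.

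Of 103 other developmental regulators named from families outside the rule, 75 were in the table and 34 were tested, of which 6 were higher and 3 lower (median log2 difference -0.03), beside 21.8% and 18.0% of all tested genes. Wt1, a zinc finger gene of kidney and gonad development, had 0 to 7 counts in Htt+/+ mice and 27 to 93 in Htt Q111/+ mice, with a log2 difference of 4.16 (SE 0.32, adjusted p = 8.35e-13, limma). Wt1 stayed under 10 counts in every Htt+/+ mouse. It therefore passed the count filter only through the Htt Q111/+ mice, and its place among the 6 higher genes rests on that. As the genotypes did not overlap, Wt1 had to be higher in each of the 5 lanes with both genotypes (log2 difference 3.11 to 3.76). The lanes therefore add no separate support. Shox2, a homeobox gene of limb and thalamus, ranged from 0.026 to 0.95 CPM in Htt+/+ mice and from 0.14 to 0.75 CPM in Htt Q111/+ mice, a log2 difference of 1.06 (adjusted p = 0.00284, limma), with the highest value of all in the left hemistriatum mouse. Without it the Htt+/+ mice reached 0.29 CPM and the log2 difference was 1.25 (adjusted p = 1.04e-04, limma). Shox2 too could not have passed the count filter on its Htt+/+ values alone. Its call therefore has the same limit as that of Wt1. Otx2, which is abundant in choroid plexus, was lower by 0.44 on the log2 scale (adjusted p = 0.0487, limma), with its highest value of 6.06 CPM in the Htt+/+ mouse on control ASO whose choroid plexus genes summed to 1587 CPM. Without that mouse, left out after the data were seen, Otx2 reached at most 2.02 CPM in Htt+/+ mice and was not called (log2 difference -0.30, adjusted p = 0.06, limma).

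**Figure D5:**
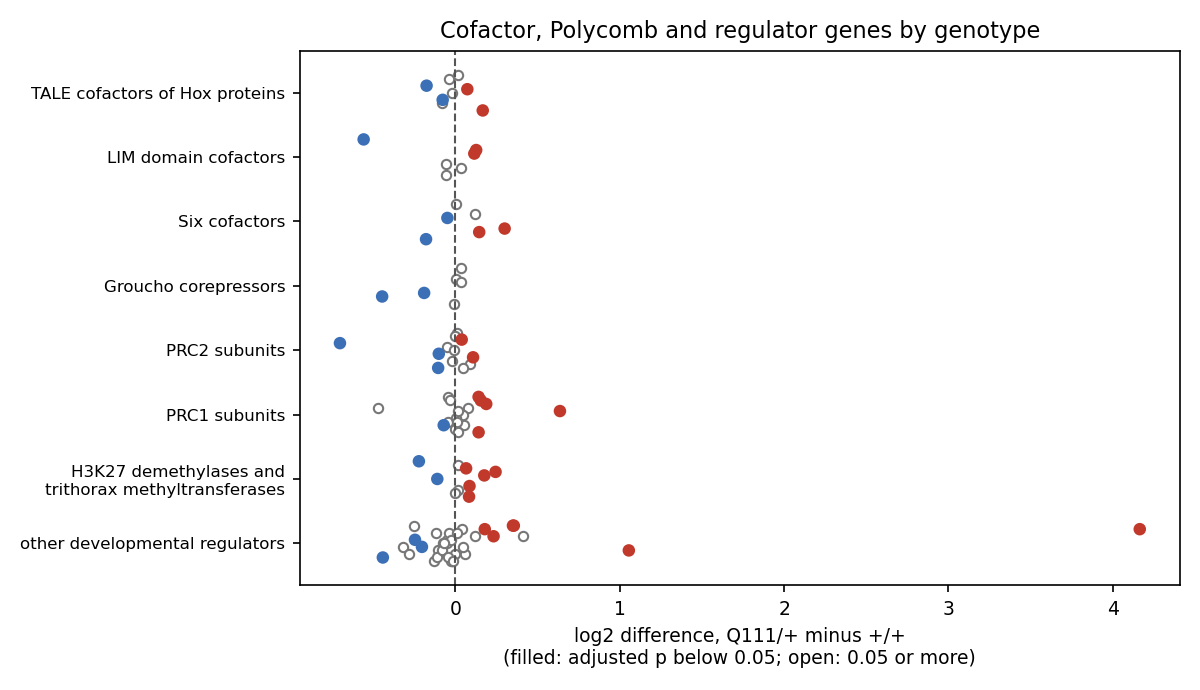
Log2 difference between Htt Q111/+ and Htt+/+ mice for the tested genes of the 8 lists (rows); filled points have an adjusted p below 0.05, red above and blue below 0. The lone point at 4.16 is Wt1, and every other called gene lies between -0.70 and 1.06.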

How the data were processed

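Per the labels and the study's methods, stranded mRNA libraries were sequenced as read pairs, aligned with Bowtie 0.12.9 to the mouse transcriptome (mm9, MGSCv37) and quantified with RSEM 1.1.18. The values the authors deposited are expected counts, estimated per gene and not normalized. RSEM divides reads that match several transcripts, so near-identical or overlapping genes share error. Here counts were analysed with limma 3.58.1 after voom in R 4.3.3, as in the study, with TMM scaling, filterByExpr over the 6 groups (17639 genes), a mean per group, 29 residual degrees of freedom and adjustment over all tested genes. edgeR 4.0.16 and DESeq2 1.42.0, on counts rounded to whole numbers, were alternatives, as were library totals, other filters, lane, leaving out lane 7 or each mouse, quality weights, an additive model and mouse name letters as a random block. Scripts were tested on simulated data. Treatment "ASO1" in the labels was taken as the Htt ASO. Each mouse is a separate animal, and no 2 libraries of a group agreed within sampling noise. Named genes were the members, with full values for those called and for the 3 uncalled genes of highest mean CPM, and up to 3 called genes of each list. From the demethylase and trithorax list all called genes were named. The members and lists were chosen with earlier results of these data known. Some genes are not reported here.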

Additional observations from a re-analysis of the deposited data

Results flagged for a closer look

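Groups of 5 or 6 mice were searched for a highest or lowest value far from the others, in the 8 genes given with full values and the 6 groups. Of the 48 groups checked, 3 were flagged, and chance alone flags about 1 in 20. In Htt Q111/+ mice on control ASO the lowest mouse for Lhx2 was at 16.8 CPM. In Htt Q111/+ mice on saline the lowest mouse for Lhx6 was at 20.2 CPM. In Htt+/+ mice on Htt ASO the highest mouse for Six3 was at 25.3 CPM.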

How the results depend on the processing

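Dlx5 and Dlx6 kept their direction and their call under all 11 alternatives (log2 differences 0.22 to 0.27 and -0.18 to -0.12, adjusted p at most 0.00167 and 0.00847) and with any mouse left out (0.20 to 0.24 and -0.17 to -0.14). With library totals 4 of the 25 genes were called, 3 of them higher, since Nkx2-2 and Nkx6-2 joined. With each mouse left out in turn the number called ran from 2 to 4, higher from 1 to 2 and lower from 1 to 3. Tbx2 was called without the Htt+/+ mouse 2 on Htt ASO (adjusted p = 0.0300), the Htt Q111/+ mouse 3 on Htt ASO (0.0353) or the Htt+/+ mouse 6 on saline (0.0347). Lhx2 was called without that last mouse (0.0420) or the Htt+/+ mouse 5 on control ASO (0.0416), and Nkx2-2 without the Htt+/+ mouse 3 on Htt ASO (0.0364) or the Htt Q111/+ mouse 5 on saline (0.0483). The cause was not tested.

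Only uncalled genes changed sign. With library totals Irx1 came to 0.021 and Six5 to 0.030, with lane as a covariate Dlx4 to 0.051 and Irx1 to 0.057, without lane 7 Irx1 to 0.11 and Pax6 to -0.0075, with quality weights Dlx1 to -0.015 and Six5 to 0.0049, and in the additive model Irx1 to 0.016. With a mouse left out Dlx1 ran from -0.022 to 0.090, Irx1 from -0.090 to 0.085, Six4 from -0.16 to 0.0053 and Six5 from -0.037 to 0.014.

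Of the rows under the count minimum, 3 were called higher and 0 lower with lane as a covariate, and 0 lower without the left hemistriatum mouse. With a mouse left out, 4 to 5 were higher and 0 to 1 lower: Hoxc5 was called in 14 and Six2 in 16 of the 35 such fits, and the other 4 rows in all 35. Without lane 7, Hoxc5 had an adjusted p of 0.158. Counts this low limit any statement about silent genes to the sums and ratios given. No paired analysis was possible because the labels carry no replicate numbers that pair mice across groups. The random block for mouse name letters (correlation 0.091) left 2 genes called.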
